A study of Rattus norvegicus with 12 samples.

Results

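The endothelial and mural cell genes described here are a list of 38 genes that mark the cells of the blood vessel wall in brain. A gene was kept where its mean level over the 12 libraries of the study was at least 0.5 TPM (a transcript's share of the library's abundance, the deposited measure of abundance, which is relative to transcript length and to the library's total). By this rule 36 of the 38 genes were kept, out of 24540 genes at that level and 41596 genes in all. There were 25 endothelial members and 11 mural members, the mural ones being 8 pericyte and 3 smooth muscle genes. Pecam1 and Abcb1a, 2 listed endothelial genes, were not found under these symbols and were not analysed here.

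The tissue was periaqueductal grey, the midbrain region around the aqueduct that takes part in descending pain control. The study compared offspring by what their sires had received: morphine-sired rats (n = 6) were the male Sprague Dawley offspring of males given morphine, and saline-sired rats (n = 6) were the male Sprague Dawley offspring of males given saline. The labels record a treatment of the sire and none of the offspring, and they give no age, dose, litter or sire, so the p-values below measure only the spread between these animals. PolyA RNA was sequenced from dissected, frozen tissue, 1 library per animal, at a depth of 4.39 to 6.03 gigabases.

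Endothelial cells line the vessel, and in brain they are sealed by tight junctions and carry transporters that move sugars, amino acids and lipids across the blood-brain barrier. Pericytes sit on the outside of capillaries, are recruited by PDGF-B acting on the receptor encoded by Pdgfrb, and help to keep the barrier closed. Smooth muscle cells wrap arteries and arterioles, and their contractile genes are driven by serum response factor and its partner myocardin through DNA elements called CArG boxes. In bulk tissue, fewer cells of a type and less RNA per cell cannot be told apart.

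The list's label was checked on its pair of defining genes. Pdgfrb, the pericyte marker, was present in all 12 libraries at 7.59 to 13.4 TPM. Cldn5, which encodes the main claudin of brain endothelial tight junctions, was listed at 0 in 8 of 12 libraries, while the other 24 endothelial members were above 0 in all 12. The exon that holds Cldn5 was covered in all 12 libraries, as described with that gene. Some members are not confined to vessels in brain: Slc2a1, Slc16a1, Bsg and Slc7a5 are also expressed by glia or neurons.

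The libraries differed in how much RNA of neighbouring structures they carried. The summed level of 12 choroid plexus genes was 174 TPM at the lowest, 236 TPM at the median and 2146 TPM at the highest in morphine-sired rats, against 214, 234 and 640 TPM in saline-sired rats. The highest were morphine-sired 2, where the choroid plexus gene Ttr stood at 1756 TPM, and saline-sired 2, where it stood at 413 TPM. Blood genes summed to 717, 830 and 2193 TPM in morphine-sired rats (lowest, median, highest) and to 614, 690 and 1045 TPM in saline-sired rats, again highest in morphine-sired 2. Genes of raphe and motor neurons summed to 6.35, 73.4 and 460 TPM in morphine-sired rats and to 3.86, 139 and 1003 TPM in saline-sired rats, and the raphe gene Tph2 was under 1 TPM in morphine-sired 1 and in saline-sired 1 and 6. Ependymal genes summed to 18.2, 163 and 360 TPM in morphine-sired rats and to 84.9, 127 and 231 TPM in saline-sired rats. Without the 3 libraries low in raphe RNA, 0 members were called, and the median log2 difference was -0.03 for the endothelial and 0.00 for the mural members. Without both libraries numbered 2, 0 members were called, and the median log2 difference was -0.02 for the endothelial and 0.01 for the mural members. At an unadjusted p under 0.05, 4 of 11 microglial genes and 3 of 12 choroid plexus genes were higher and 2 of 11 neuronal genes lower in morphine-sired rats, where 1.5% of all genes were higher and 1.72% lower. In the lists of meninges and fibroblasts, blood, perivascular macrophages, astrocytes, ependymal cells, oligodendrocytes, and raphe and motor neurons, 0 genes reached that level. With a choroid plexus score, or a raphe and motor neuron score, as a further term in limma, 0 members were called. The part of these cells in the values of the members was otherwise not tested.

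None of the 36 members passed the test between the groups. The test was limma on log2(TPM + 1), two-sided, fitted across all 24540 genes with Benjamini-Hochberg adjustment at 0.05. Across all genes 0% were called higher and 0% lower by this rule, and voom, run on read numbers estimated from coverage, called 0 as well. At an unadjusted p under 0.05, limma counted 790 genes, or 3.22% of those tested (1.5% higher and 1.72% lower), voom counted 745, and limma counted 0 of the 36 members. Without morphine-sired 2 the limma count was 1473 genes (6%) and without both libraries numbered 2 it was 2174 (8.86%), with 2 members, Ocln and Mfsd2a, in each case. The groups did not overlap for 0.0896% of all genes and for 0 of the 36 members. The mean log2 level was lower in morphine-sired rats for 24 and higher for 12 of the 36 members, where 50.8% of all genes were lower and 49.2% higher, and the median log2 difference (morphine-sired minus saline-sired, here and below) was -0.04 for the members and -0.00 for all genes.

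**Figure D1:**
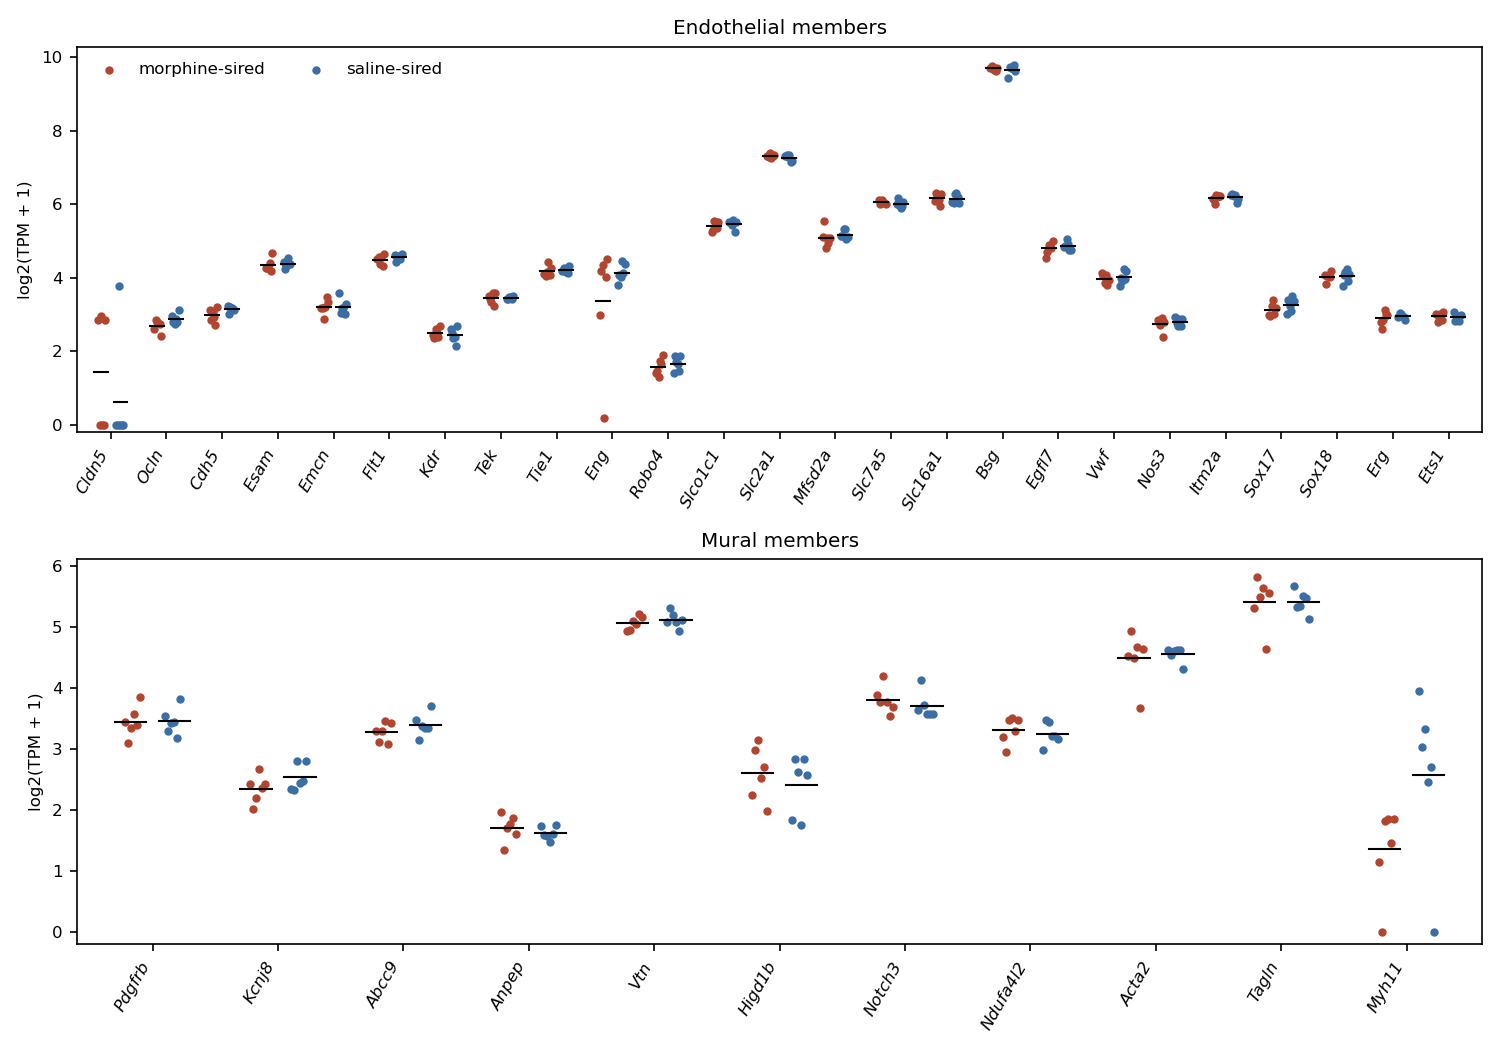
Level of each member in each library, as log2(TPM + 1), for the 25 endothelial members (upper panel) and the 11 mural members (lower panel). Each point is 1 library, morphine-sired to the left of saline-sired, and the short black line is the group mean; the points of the groups overlap for every member, and Cldn5, Eng and Myh11 have libraries at or near 0.

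The members covered a wide range of levels. The highest was Bsg, which encodes basigin, the partner that carries monocarboxylate transporters to the membrane, with a mean over all 12 libraries of 819 TPM. The glucose transporter gene Slc2a1 followed at 155 TPM, and these 2 genes were the only members over 100 TPM. Another 17 members lay between 10 and 100 TPM and 17 lay under 10 TPM, the lowest being Robo4, a guidance receptor of endothelial cells, at 2.12 TPM. The endothelial members summed to 1395, 1477 and 1508 TPM in morphine-sired rats (lowest, median, highest) and to 1324, 1487 and 1498 TPM in saline-sired rats. The mural members summed to 123, 162 and 165 TPM in morphine-sired rats and to 145, 158 and 170 TPM in saline-sired rats. Both sums overlapped between the groups. Most of the endothelial sum was that of the 6 barrier transporters, at medians of 1203 TPM in morphine-sired and 1205 TPM in saline-sired rats. It was led by Bsg and Slc2a1, which glia or neurons also express, so it is not a measure of endothelial RNA alone.

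The barrier transporters were the steadiest group, with a median SD of log2(TPM + 1) over the 12 libraries of 0.106. Slc2a1 ran from 152 over a median of 158 to 166 TPM in morphine-sired rats, against 142, 155 and 162 TPM in saline-sired rats, with the lowest values in saline-sired 5 and 6. The means were 158 ± 5.16 and 153 ± 8.99 TPM (SD, n = 6 each), and the log2 difference was 0.05 ± 0.05 (SE) with a 95% interval of -0.05 to 0.15. The coefficient of variation over the 12 libraries was 4.81%. Slc7a5, the large neutral amino acid transporter that carries L-DOPA into brain, had 65.7 ± 2.34 TPM in morphine-sired rats and 63.5 ± 4.28 TPM in saline-sired rats (log2 difference 0.05, interval -0.06 to 0.16). Slc16a1, the monocarboxylate transporter 1, had 70.6 ± 6.56 TPM in morphine-sired rats and 70.3 ± 6.26 TPM in saline-sired rats, and its partner Bsg had 829 ± 29.4 and 809 ± 66.7 TPM in the same order. The intervals of Slc16a1 (-0.15 to 0.17) and Bsg (-0.08 to 0.16) both included 0, and Bsg was lowest, at 687 TPM, in saline-sired 1.

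Slco1c1, which carries thyroid hormone across the barrier, had 36.7, 42.2 and 46.0 TPM in morphine-sired rats (lowest, median, highest) and 37.2, 44.1 and 46.3 TPM in saline-sired rats, so that the groups covered almost the same range (log2 difference -0.05 ± 0.07). Mfsd2a, the lysophosphatidylcholine transporter that also restrains transcytosis, had 26.8, 32.9 and 45.5 TPM in morphine-sired rats and 32.0, 34.0 and 39.2 TPM in saline-sired rats. Its highest value of all was in morphine-sired 2, the library with the most choroid plexus and blood RNA, and its lowest in morphine-sired 3. The log2 difference was -0.08 ± 0.11 with limma, and without both libraries numbered 2 it was -0.18 ± 0.08 (unadjusted p 0.0499, adjusted p 0.563).

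The endothelial junction and surface genes held the members with the smallest endothelial p-values. Ocln, which encodes occludin of the tight junction, had 4.35, 5.77 and 6.26 TPM in morphine-sired rats (lowest, median, highest), against 5.77, 6.14 and 7.71 TPM in saline-sired rats. Morphine-sired 6 and 1 were the lowest of the 12 and saline-sired 6 and 1 the highest, with the remaining libraries mixed. The means were 5.52 ± 0.690 and 6.41 ± 0.740 TPM, a log2 difference of -0.19 ± 0.10 (interval -0.39 to 0.02, limma's unadjusted p 0.0742). Without morphine-sired 1 and saline-sired 1 and 6, the libraries low in raphe RNA, it was -0.09 ± 0.10. Cdh5, the VE-cadherin gene of adherens junctions, had 5.54, 7.04 and 8.27 TPM in morphine-sired rats and 7.13, 7.92 and 8.37 TPM in saline-sired rats. The lowest 3 libraries for Cdh5 were morphine-sired 5, 2 and 4, while the highest morphine-sired library lay within the saline-sired range. Its log2 difference was -0.17 ± 0.09 (interval -0.36 to 0.03, unadjusted p 0.0888).

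Neither gene passed the adjusted test, and assembled transcripts, those not in the annotation, held 21.1% of the level of Ocln and 39.7% of that of Cdh5. With annotated transcripts alone the log2 differences were 0.12 ± 0.35 for Ocln and -0.61 ± 0.31 for Cdh5. Esam, an adhesion molecule of endothelial junctions, had 19.4 ± 2.64 TPM in morphine-sired rats and 19.9 ± 1.46 TPM in saline-sired rats. Emcn, a sialomucin of capillaries and veins, had 8.37 ± 1.25 and 8.37 ± 1.41 TPM in morphine-sired and saline-sired rats, a log2 difference of 0.00 with an interval of -0.25 to 0.25.

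Cldn5 could not be compared at its deposited level. Its TPM was listed as 6.22, 0, 6.77, 0, 0 and 6.24 in morphine-sired 1 to 6, and as 0, 0, 12.7, 0, 0 and 0 in saline-sired 1 to 6. The fit gave a log2 difference of 0.81 ± 0.81, which rested on 4 libraries. The annotated Cldn5 transcript has a single exon of 1425 bases on the minus strand at chr11:86356294-86357718 (Rnor_6.0). It lies wholly inside exon 19, the last exon, of Cdc45, which is on the plus strand at chr11:86329012-86358453. Cdc45 encodes a factor of the DNA replication helicase, which dividing cells use.

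Read depth at this locus was uneven between the exons of Cdc45. Exon 19 (4479 bases) had a mean read depth of 88.1 to 111 in morphine-sired and 76.6 to 127 in saline-sired libraries, without the reads that StringTie had given to Cldn5. The other 18 exons of Cdc45 had a mean depth of 0.131 to 2.53 in morphine-sired and 1.22 to 3.04 in saline-sired libraries. Exon 19 was thus 25.2 to 709 times deeper than the rest of its transcript. With the reads of both transcripts put together and scaled to TPM per library, exon 19 stood at 40.5, 42.0 and 46.9 in morphine-sired rats (lowest, median, highest) and at 41.8, 43.5 and 48.2 in saline-sired rats, with a coefficient of variation of 5.80%.

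On that scale the means were 42.6 ± 2.33 in morphine-sired and 44.4 ± 2.60 in saline-sired rats (SD, n = 6 each), and the groups overlapped. The difference of log2(value + 1) was -0.06 ± 0.05 (exact permutation test, two-sided, p = 0.227). This measure was chosen after the values had been seen. The sources used here do not give the strand protocol of the libraries, and the reads of exon 19 cannot be told apart between Cldn5 and Cdc45 by strand.

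Eng encodes endoglin, a co-receptor of the BMP9 and BMP10 ligands on endothelial cells, and it was the endothelial member with the widest spread after Cldn5. Its TPM was 6.95, 17.3, 19.4, 0.145, 15.3 and 21.7 in morphine-sired 1 to 6 and 13.04, 15.8, 15.2, 20.8, 16.4 and 19.9 in saline-sired 1 to 6. Only morphine-sired 4 and 1 fell below the saline-sired range, and the log2 difference was -0.76 ± 0.61 (unadjusted p 0.232). Eng shares its assembled locus with AABR07051450.1, and the rule used for gene values leaves assembled transcripts out where a locus has several symbols. When each assembled transcript was given to the symbol with which it shares most exon bases, a step added after the values had been seen, Eng had 22.9 to 32.4 TPM in morphine-sired and 22.5 to 32.5 TPM in saline-sired rats. The means were then 27.4 ± 3.79 and 26.7 ± 4.04 TPM, and the log2 difference was 0.04 ± 0.11 (interval -0.20 to 0.27).

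**Figure D2:**
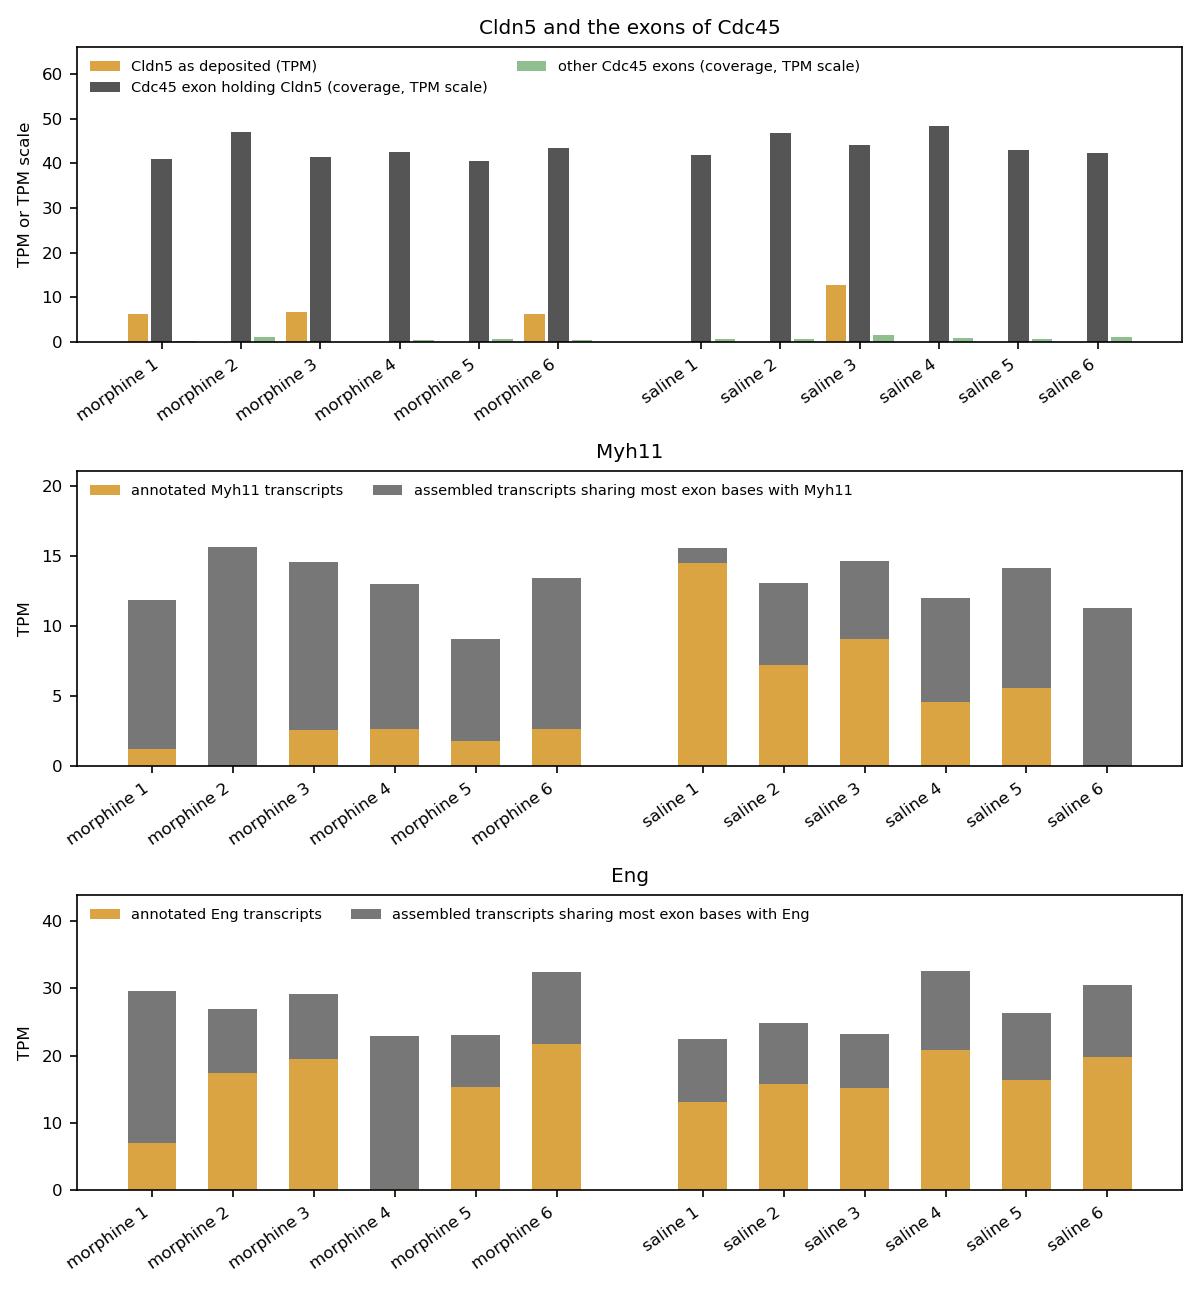
Levels by library, the 6 morphine-sired libraries to the left of the 6 saline-sired ones. The upper panel sets Cldn5 as deposited beside the read depth of exon 19 of Cdc45 (40.5 to 48.2 on the TPM scale) and of the other Cdc45 exons; the middle and lower panels stack annotated and assembled transcripts of Myh11 and Eng, whose totals vary less than their annotated parts.

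The vessel receptors showed small differences. Flt1 and Kdr encode VEGF receptors 1 and 2. Flt1 had 21.7 ± 1.90 TPM in morphine-sired rats and 22.6 ± 1.28 TPM in saline-sired rats (log2 difference -0.06 ± 0.07). Kdr, the main signalling receptor, had 4.65 ± 0.519 TPM in morphine-sired rats and 4.51 ± 0.705 TPM in saline-sired rats (0.04 ± 0.10). Tek and Tie1 encode the angiopoietin receptor TIE2 and its partner. Tek had 8.41, 9.97 and 11.1 TPM in morphine-sired rats (lowest, median, highest) and 9.72, 9.92 and 10.3 TPM in saline-sired rats, the medians nearly coinciding while the morphine-sired values reached further on both sides. The log2 differences were -0.01 ± 0.07 for Tek, -0.03 ± 0.07 for Tie1 and -0.08 ± 0.13 for Robo4. Tie1 drew 77.1% of its level from assembled transcripts.

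All 4 secreted and other endothelial members had a slightly lower mean log2 level in morphine-sired rats, and none passed the test. Egfl7, an extracellular matrix protein made by endothelial cells, had 27.0 ± 3.06 TPM in morphine-sired rats and 28.2 ± 2.27 TPM in saline-sired rats (log2 difference -0.07 ± 0.08). Vwf, which encodes von Willebrand factor of the clotting system, had 14.8 ± 1.46 and 15.3 ± 1.96 TPM in the same order. Nos3, the endothelial nitric oxide synthase that relaxes vessels, had 5.76 ± 0.820 TPM in morphine-sired rats and 6.00 ± 0.513 TPM in saline-sired rats, with its lowest value, 4.23 TPM, in morphine-sired 5. Itm2a, a membrane protein gene enriched in brain endothelium, had 71.3 ± 4.29 and 72.4 ± 4.28 TPM in morphine-sired and saline-sired rats.

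The transcription factors Erg and Ets1 belong to the ETS family, which binds GGAA cores in many endothelial promoters, and Sox17 and Sox18 act in arterial and lymphatic endothelium. Sox17 had 6.83, 7.51 and 9.57 TPM in morphine-sired rats (lowest, median, highest) and 7.09, 8.92 and 10.3 TPM in saline-sired rats. The 3 lowest libraries were morphine-sired 2, 1 and 5, yet morphine-sired 4 was the second highest, and the log2 difference was -0.14 ± 0.11 (interval -0.37 to 0.09). Assembled transcripts held 91.5% of the Sox17 level, and with annotated transcripts alone the log2 difference was 0.87 ± 0.42 (unadjusted p 0.0590). Sox18 had 15.4 ± 1.23 TPM in morphine-sired rats and 15.6 ± 1.79 TPM in saline-sired rats. The log2 differences of Erg (-0.05 ± 0.09) and Ets1 (0.02 ± 0.07) were also within the spread.

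The SD of log2(TPM + 1) over the 12 libraries had a median of 0.205 over the 8 pericyte members, 0.304 over the 3 smooth muscle members, 0.137 over the 25 endothelial members and 0.206 over all genes within the members' range of levels. Pdgfrb had 7.59, 9.72 and 13.4 TPM in morphine-sired rats (lowest, median, highest) and 8.11, 9.86 and 13.2 TPM in saline-sired rats. The groups lay on top of each other, with number 6 the highest library of each group, and the means were 10.1 ± 1.97 and 10.1 ± 1.76 TPM. Assembled transcripts held 14.9% of the Pdgfrb level. The assembled transcript, with 10 exons, stood at 5.56 TPM in morphine-sired 6, 5.49 TPM in saline-sired 6 and 3.25 TPM in saline-sired 4. It stood at 0.648 TPM or less in the other libraries, so the high values of number 6 rest on it. The log2 difference was -0.00 ± 0.13, with an interval of -0.28 to 0.28.

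Kcnj8 and Abcc9 encode the pore Kir6.1 and the regulatory subunit SUR2 of the ATP-sensitive potassium channel of pericytes. Kcnj8 had 3.07, 4.27 and 5.40 TPM in morphine-sired rats and 4.02, 4.53 and 6.01 TPM in saline-sired rats (lowest, median, highest). Saline-sired 6 was the highest library for both subunits, and morphine-sired 2 was the lowest for Kcnj8 and the second lowest for Abcc9. The log2 differences were -0.18 ± 0.13 for Kcnj8 (unadjusted p 0.180) and -0.12 ± 0.10 for Abcc9.

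Vtn, which encodes vitronectin, had 32.8 ± 2.67 TPM in morphine-sired rats and 34.0 ± 3.04 TPM in saline-sired rats, and it was the mural member with the narrowest interval (-0.20 to 0.10). Anpep, the aminopeptidase CD13 of pericytes, had 2.32 ± 0.488 and 2.105 ± 0.233 TPM in morphine-sired and saline-sired rats. Notch3, the receptor that maintains mural cells, had 10.7, 12.7 and 17.4 TPM in morphine-sired rats and 10.9, 11.3 and 16.6 TPM in saline-sired rats. The highest Notch3 values were in morphine-sired 3 and saline-sired 2, 1 of each group, and the log2 difference was 0.11 ± 0.12. In morphine-sired 3 the annotated Notch3 transcript stood at 12.3 TPM. The rest was an assembled transcript of 4 exons at 5.11 TPM, which was listed at 0 in every other library. Ndufa4l2, a hypoxia-induced mitochondrial protein gene that marks pericytes, had a log2 difference of 0.07 ± 0.11.

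Higd1b, a mitochondrial protein gene enriched in pericytes, had 5.33 ± 1.89 TPM in morphine-sired rats and 4.58 ± 1.70 TPM in saline-sired rats (log2 difference 0.19 ± 0.25). It shares a locus with AABR07030514.1. With transcripts given out by shared exon bases its means were 6.84 ± 1.06 and 7.05 ± 0.611 TPM, the log2 difference was -0.05 ± 0.10, and the coefficient of variation over the 12 libraries was 12.0% in place of 35.5%.

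The balance of mural to endothelial cells was described by a ratio of markers. The ratio meant for this purpose, Pdgfrb to Cldn5, could not be formed with Cldn5 at 0 in 8 libraries, so Cdh5 was used in its place, a choice made after the values had been seen. The log2 ratio of Pdgfrb to Cdh5 ran from 0.29 to 0.79 in morphine-sired rats and from 0.05 to 0.76 in saline-sired rats. The means were 0.53 ± 0.23 and 0.34 ± 0.23 (SD, n = 6 each), a difference of 0.19 (exact permutation test, two-sided, p = 0.208, adjusted over 2 ratios 0.416). The smallest p this design allows is 0.00216. Cdh5 alone had a log2 difference of -0.17 and Pdgfrb one of -0.00, beside a median of -0.04 for the endothelial members. The difference in the ratio is thus mostly that of Cdh5, and ratios to other endothelial members were not formed. The log2 ratio of Acta2 to Pdgfrb, smooth muscle to pericyte, was 1.11 ± 0.55 in morphine-sired rats and 1.18 ± 0.35 in saline-sired rats (exact permutation test, p = 0.801). Both ratios use the Pdgfrb level with its assembled transcript.

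Of the smooth muscle members, Acta2 and Tagln varied together between animals, in both groups. Acta2 encodes smooth muscle alpha-actin, Tagln encodes the actin-binding protein SM22 alpha, and Myh11 encodes the smooth muscle myosin heavy chain. The promoter of Acta2 is shown because Acta2 and Tagln, known targets of serum response factor, varied together. The stretch covers 250 bases before and 50 bases after the RefSeq start at chr1:241172454-241172753 (GRCr8, minus strand), printed 5′ to 3′, and the capitals mark its 2 near-matches to the CArG box, each with 1 changed middle base.

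Acta2: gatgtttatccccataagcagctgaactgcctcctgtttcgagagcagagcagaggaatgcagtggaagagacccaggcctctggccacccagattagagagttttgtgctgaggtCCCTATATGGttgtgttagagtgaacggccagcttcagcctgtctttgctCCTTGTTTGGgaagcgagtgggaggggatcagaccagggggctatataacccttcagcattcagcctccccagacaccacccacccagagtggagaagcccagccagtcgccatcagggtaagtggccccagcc

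The matches begin 134 and 84 bases before the start. The letters were searched on both strands of 33469 RefSeq promoters of the same length: 0.532% held 2 or more such near-matches, 8.10% held at least 1, and 1.64% held a CArG box without a changed base. Of the 24 listed genes with a promoter in that table, 0 held an unchanged box and 4 held a near-match, namely Acta2, Ocln, Tie1 and Kdr. Tagln and Myh11 had no promoter there under these symbols, so the promoters of these smooth muscle genes were not searched. A match of letters is a description and not a bound site. What made Acta2 and Tagln vary together between animals was not tested.

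Acta2 had 11.9, 23.1 and 29.9 TPM in morphine-sired rats (lowest, median, highest) and 18.8, 23.6 and 23.9 TPM in saline-sired rats. Tagln had 24.2, 45.3 and 55.8 TPM in morphine-sired rats and 34.3, 41.7 and 50.3 TPM in saline-sired rats. For both genes morphine-sired 5 was the lowest and morphine-sired 2 the highest of the 12, and saline-sired 6 was the lowest of its group. For both genes the saline-sired range lay inside the morphine-sired one, with log2 differences of -0.07 ± 0.17 for Acta2 and -0.00 ± 0.17 for Tagln. Tagln shares its locus with Sidt2, and its value was the same when transcripts were given out by shared exon bases.

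Over the 12 libraries, the levels of Acta2 and Tagln had Pearson's r of 0.948 (permutation p = 3e-05, adjusted over 8 pairs 0.00024) and Spearman's rho of 0.839 (permutation p = 0.00118, adjusted 0.00944). Without morphine-sired 2 and 5, the libraries farthest from the median of Acta2, r was 0.791. Within morphine-sired rats r was 0.982 and within saline-sired rats 0.817. Between Acta2 and the pericyte gene Pdgfrb, r was -0.193 (permutation p = 0.525, adjusted 0.529). It was -0.228 without morphine-sired 6 and saline-sired 6.

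Morphine-sired 2 and 5 also stood at the ends for other members. Morphine-sired 2 was the lowest of the 12 libraries for 9 of the 35 members with at most 1 library at 0, among them 4 of 8 pericyte and 3 of 4 transcription factor members. It was the highest for Acta2, Tagln and Mfsd2a. Morphine-sired 5 was the lowest for 10 of the 35 members, with Acta2, Tagln, Cdh5, Tek and Nos3 among them, and the highest for 0. All 36 members are relative to the library's total. Morphine-sired 2 had the highest summed choroid plexus and blood genes, at 2146 and 2193 TPM. It also had the highest level of the oligodendrocyte gene Mbp, at 12542 TPM. Why morphine-sired 2 and 5 stood at the ends was not tested.

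Myh11 was the member with the smallest p, and its value depended on which transcripts were counted. Its TPM was 1.22, 0.0027, 2.54, 2.63, 1.76 and 2.62 in morphine-sired 1 to 6, and 14.5, 7.18, 9.03, 4.55, 5.53 and 0 in saline-sired 1 to 6. Of the saline-sired libraries 5 lay above the whole morphine-sired range and 1, saline-sired 6, was listed at 0. The log2 difference was -1.22 ± 0.57 (interval -2.45 to 0.01, limma's unadjusted p 0.0511, adjusted p 0.9998). Without saline-sired 6 it was -1.74 ± 0.36 (unadjusted p 0.000478, adjusted p 0.9997).

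These values hold only the 2 annotated Myh11 transcripts, because the locus at chr10:730247-859184 also carries Fopnl. With the assembled transcripts that share most exon bases with Myh11 added, it had 9.06 to 15.6 TPM in morphine-sired rats and 11.3 to 15.5 TPM in saline-sired rats. The means were 12.9 ± 2.28 and 13.4 ± 1.63 TPM, and the log2 difference was -0.06 ± 0.12 (interval -0.32 to 0.19, unadjusted p 0.596). Most of the level was then in assembled transcripts in every morphine-sired library, and in saline-sired 1, 2 and 3 most was in annotated ones. The assembled ones include 2 that begin at or near the start of Fopnl, at 730247 and 730269, and run on through Myh11. They stood at 9.92 and 1.40 TPM in morphine-sired 3 and at 0.139 and 5.31 TPM in saline-sired 2. On the count by shared exon bases Myh11 was lowest in morphine-sired 5 and highest in morphine-sired 2, as Acta2 and Tagln were. Pearson's r between Acta2 and Myh11 was 0.844 (permutation p = 0.0012, adjusted 0.0048), but rho was 0.539 (adjusted 0.150). Without morphine-sired 2 and 5 r was 0.490, so that this relation rests on those libraries. This pair was run only on the count by shared exon bases, which was chosen after the values had been seen. The planned pairs that held Cldn5 were not run, so the adjustment is not over the planned pairs.

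**Figure D3:**
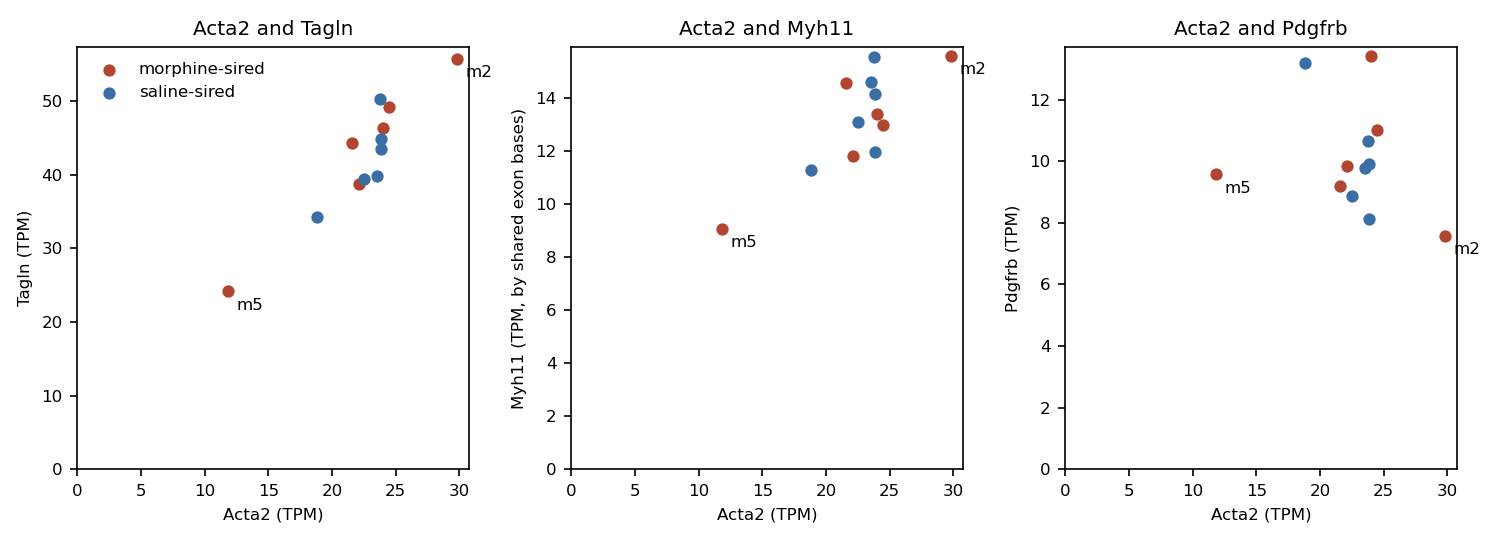
Level of Tagln, Myh11 (by shared exon bases) and Pdgfrb against Acta2, in TPM, with 1 point per library and morphine-sired 2 and 5 marked m2 and m5. Tagln follows Acta2 over the 12 libraries (r = 0.948), Myh11 does so mainly through m2 and m5, and Pdgfrb does not (r = -0.193).

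Among the other pairs of members set together for their function, Tek and Tie1 had r of 0.663 (adjusted permutation p 0.0392) and 0.641 without the 2 libraries farthest out, with rho of 0.664 (adjusted 0.0864). Kcnj8 and Abcc9, the 2 channel subunits, had r of 0.695 (adjusted 0.0325) and rho of 0.608 (adjusted 0.107), but r was 0.404 without morphine-sired 2 and saline-sired 6 and rests on them. Flt1 with Kdr (r = 0.305), Bsg with Slc16a1 (0.461) and Sox17 with Sox18 (0.200) did not pass (adjusted permutation p 0.447, 0.190 and 0.529).

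The precision of the comparison differed between the 2 cell classes. The half-width of a gene's 95% interval was 0.18 at the median of the endothelial members and 0.28 at that of the mural members, beside 0.30 for all genes tested and 0.26 for genes within the members' range of levels. The whole interval lay inside -0.25 to 0.25 for 15 of 25 endothelial and 1 of 11 mural members, where 25.4% of all genes met that bound. It lay inside -0.5 to 0.5 for 32 of 36 members, where 60.6% of all genes met that bound. The exceptions among the members were Cldn5, Eng, Higd1b and Myh11.

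**Figure D4:**
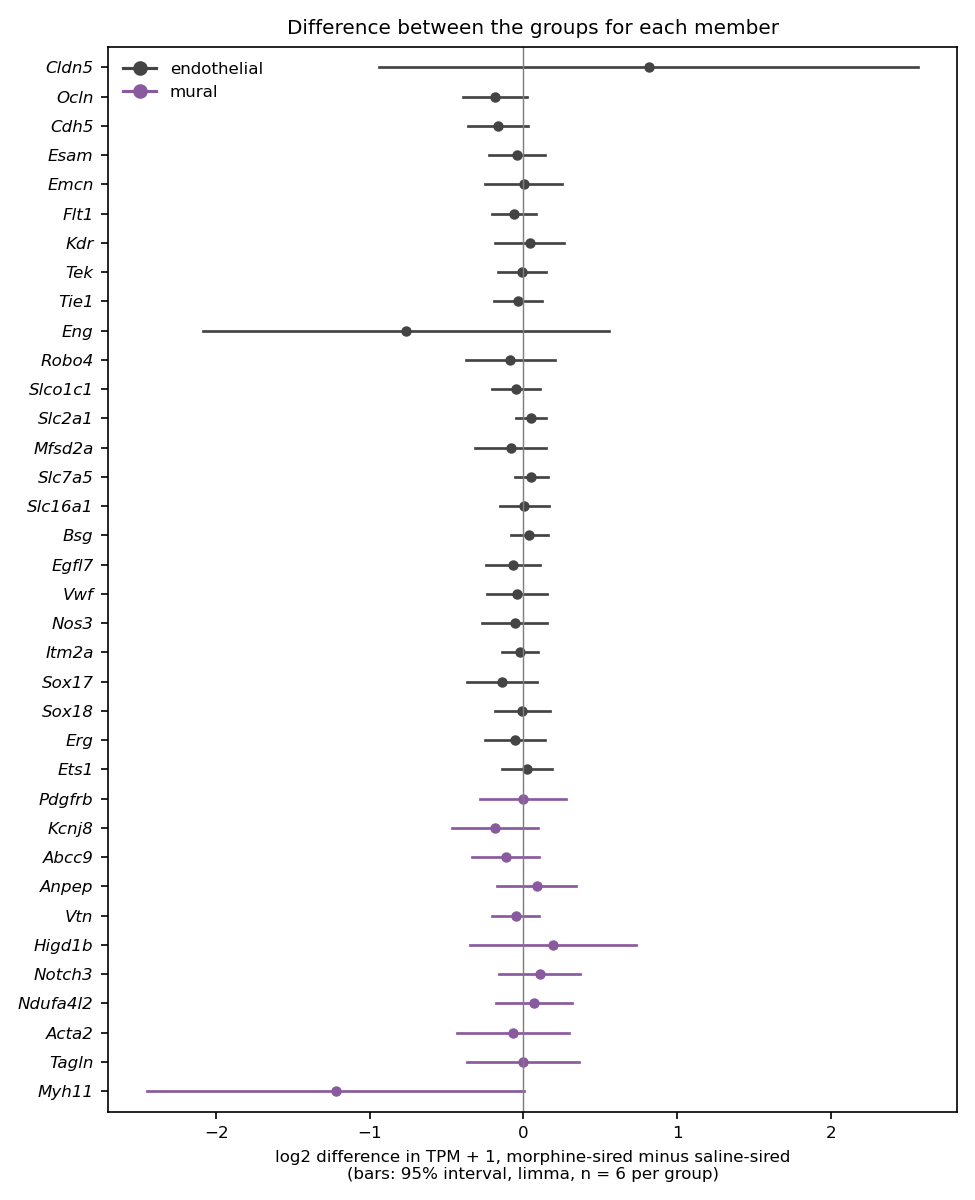
Difference in log2(TPM + 1), morphine-sired minus saline-sired, for each of the 36 members with its 95% interval from limma (n = 6 per group), endothelial members above mural members. Every interval includes 0, and those of Cldn5, Eng, Higd1b and Myh11 are the widest.

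Further genes of vessel biology were read from 6 lists. Beside their counts, 49.2% of all genes had a higher and 50.8% a lower mean log2 level in morphine-sired rats. Of 24 angiogenic ligands, coreceptors and Notch genes, 18 had a higher and 6 a lower mean in morphine-sired rats (median log2 difference 0.06), and 0 had an unadjusted p under 0.05. Pdgfb, which encodes the endothelial ligand that recruits pericytes through Pdgfrb, had 14.8 ± 2.28 TPM in morphine-sired rats and 16.7 ± 1.17 TPM in saline-sired rats (log2 difference -0.18 ± 0.10, unadjusted p 0.0833). Of 13 genes of the Wnt pathway that builds the barrier, 9 were higher and 4 lower (median 0.02), and the smallest p was that of the ligand Wnt7b, at 20.3 ± 2.49 TPM in morphine-sired and 18.4 ± 1.82 TPM in saline-sired rats. Of 11 basement membrane genes, 6 were higher and 5 lower (median 0.00), and of 7 endothelial activation genes, 5 were higher and 2 lower (median 0.10), with 0 at an unadjusted p under 0.05 in the 3 lists.

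Each of the other 2 lists held 1 gene at an unadjusted p under 0.05, where 3.22% of all genes reached it. Among 20 further barrier genes (8 higher, 12 lower, median -0.02) this was Abcg2, the efflux pump of the luminal membrane. It had 5.99, 6.87 and 11.3 TPM in morphine-sired rats (lowest, median, highest) and 6.59, 13.1 and 14.4 TPM in saline-sired rats. The high morphine-sired value was in library 1 and the low saline-sired values in libraries 3 and 5, so the groups overlapped, and the log2 difference was -0.55 ± 0.19 (limma's unadjusted p 0.0129, adjusted p 0.9998). Among 20 further mural genes (9 higher, 11 lower, median -0.01) it was Rgs5, a regulator of G protein signalling that marks pericytes, with 99.0 ± 11.0 TPM in morphine-sired rats and 111 ± 9.25 TPM in saline-sired rats. Its log2 difference was -0.17 ± 0.08 (unadjusted p 0.0492, adjusted p 0.9998).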

How the data were processed

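The authors deposited 1 StringTie file per library with coverage, FPKM and TPM for 76232 transcripts (41063 annotated, 35169 assembled), and a log2 table from which only the gene symbols were used here; its 12 per-sample columns were not used. Per the submitters' processing notes, reads were handled with Trimmomatic 0.39, HISAT2 2.2.0, SAMtools 1.11 and StringTie 2.1.2 on Rnor_6.0; per the file headers, the files were written by StringTie 1.3.6. The deposited values in these attribute fields are TPM and FPKM, normalized per library, and coverage, which is not normalized.

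TPM was summed per symbol and locus, with assembled transcripts included where a locus has 1 symbol. Genes averaging 0.5 TPM or more were tested on log2(TPM + 1), pseudocount 1, by limma 3.58.1 (trended eBayes, R 4.3.3), the sire's treatment alone in the design. TPM is relative, so a change in abundant transcripts moves all others. StringTie divides reads between overlapping transcripts, so single transcripts are uncertain. Depth was the total of bases behind FPKM.

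Ratios were tested with exact permutation tests, and correlations with 100000 permutations. On simulated data with 200 of 24540 genes changed in the comparison of morphine-sired with saline-sired rats, limma recovered 44.5% of genes changed 1.5-fold, 74.5% changed 2-fold and 94.5% changed 4-fold. Further steps used Python 3.11.15 with scipy 1.17.1. Every member was named, with at most 4 genes of smallest p from each other vessel list and at most 2 genes of highest mean TPM from each list of other cells; Cdc45 was named after its values were seen. Members and lists were chosen with earlier results of these data known. Promoters came from RefSeq (GRCr8) and were matched by symbol. Alternatives were other pseudocounts, filters, scalings and transcript sets, limma-voom, terms for choroid plexus and for raphe and motor neuron scores, and leaving out libraries.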

Additional observations from a re-analysis of the deposited data

Results flagged for a closer look

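In 4 of 72 sets of 6 libraries (36 members in each of the groups), 1 library stood apart from the other 5 by more than the 95% critical value of Dixon's gap ratio, which chance exceeds in about 1 in 20 sets. Mfsd2a, the lipid transporter of the barrier, reached 45.5 TPM in morphine-sired 2, where the next morphine-sired value was 33.6 TPM; the same library held the most choroid plexus and blood RNA. Cldn5 was 12.7 TPM in saline-sired 3 and listed at 0 in the other saline-sired libraries, while exon 19 of Cdc45, which holds Cldn5, was covered in all of them. Notch3 was 16.6 TPM in saline-sired 2, against 12.2 TPM in the next saline-sired library. Acta2 was 18.8 TPM in saline-sired 6, against 22.5 TPM in the next lowest saline-sired library. The causes were not tested.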

How the results depend on the processing

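Over 25 alternatives the count of members called stayed at 0. Of 900 values of single members under the alternatives, 892 moved by less than 1 SD of the member's level and 8 by more. Members with a wide spread could move far within that bound: Eng, at -0.76, was 0.04 by shared exon bases and -1.32 with voom, Higd1b, at 0.19, was -0.05 by shared exon bases, and Cldn5, at 0.81, was 1.85 with a pseudocount of 0.1. With annotated transcripts alone, a choice that drops the assembled share, those past the bound were Ocln (0.12), Cdh5 (-0.61), Flt1 (0.23), Mfsd2a (-0.47), Sox17 (0.87) and Ets1 (0.25); voom gave 2.75 for Cldn5, and the count by shared exon bases gave -0.06 for Myh11. The exon depth at Cldn5 gave -0.06, a further value chosen after seeing the data, as was the count by shared exon bases. An unadjusted p under 0.05 occurred in 11 of the 900 (Myh11 4, Ocln 3, Mfsd2a 2, Cldn5 1, Cdh5 1), with a smallest adjusted p of 0.547. Leaving out 1 library at a time moved the median log2 difference of endothelial members between -0.06 and -0.01, that of mural members between -0.07 and 0.05, the log2 ratio of Pdgfrb to Cdh5 between 0.13 and 0.27 and that of Acta2 to Pdgfrb between -0.24 and 0.09. The difference in the Pdgfrb to Cdh5 ratio was 0.87 with annotated transcripts alone (exact permutation p = 0.0606). On that count Cdh5 by itself was at -0.61, with 39.7% of its level, that of its assembled transcript, left out. The ratio on that count is therefore not a measure of the balance of cells, and the cause of its size was not tested. Over all genes, counts called ran from 0 to 1 higher and 0 to 1 lower when 1 library was left out (1 higher without saline-sired 6, 1 lower without saline-sired 4), and 1 gene was higher without saline-sired 1 and 6 and morphine-sired 1; these were not members. No paired analysis was possible because the labels give each animal a number of its own and none shared between the groups; the library numbers used here are only names, given in accession order. Mean read depth was lowest for Anpep (4.75) and Robo4 (4.81). The half-width of the interval on log2(TPM + 1) was 0.26 for Anpep and 0.36 for Acta2. On that scale the pseudocount of 1 shrinks the differences and intervals of low-level members most. With a pseudocount of 0.1 the SE went from 0.12 to 0.17 for Anpep and from 0.17 to 0.18 for Acta2.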
